A study of Mus musculus with 4 samples.

Results

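The cells described here are 2505 cells of the embryonic mouse knee that were chosen by their UMIs of Dcn, Lum and Ogn and of 10 genes that limit the choice, under the working name Dcn-positive connective tissue fibroblasts. A member has 4 or more UMIs of Dcn, Lum and Ogn together, no UMI of Matn1, at most 1 of Scx, Tnmd and Mkx, at most 3 of Runx2, Sp7, Alpl, Dlx5 and Ibsp, and at most 1 of Gdf5. Members are 720 of 12446 kept cells in E13.5WT, 425 of 9305 in E14.5WT, 768 of 11264 in E14.5G1KO and 592 of 11305 in E14.5dKO, out of 44320 kept cells and 45768 barcodes in all. Since the rule reads measured UMIs, the levels of its genes describe the choice of the cells and support nothing else.

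The study asks what glucose uptake does in limb joint formation, and deletes floxed Glut1 (Slc2a1) and Glut3 (Slc2a3) with Prx1cre, which recombines in early limb bud mesenchyme. E13.5WT and E14.5WT are labelled No cre and were taken at E13.5 and E14.5. E14.5G1KO is Prx1cre;Glut1f/f;Glut3f/+ and E14.5dKO is Prx1cre;Glut1f/f;Glut3f/f, both at E14.5, so the 2 Cre libraries share the floxed Glut1 alleles and at least 1 floxed Glut3 allele. The study calls its joint tissue of these ages wild type in a legend but bred its Cre embryos from floxed mothers, so whether the No cre embryos carried floxed alleles is not clear, and the number of embryos in each library is not given. Hindlimb cartilage was rolled clean of soft tissue before the knee region was cut out, so the connective tissue seen here is what that cleaning left. All libraries are labelled as interzone cells, a name that does not describe the members, which have at most 1 UMI of the interzone gene Gdf5 by the rule.

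Decorin (Dcn), lumican (Lum) and osteoglycin (Ogn) are small leucine-rich proteoglycans, secreted proteins that sit on collagen fibrils and set their width and spacing. In the limb, connective tissue fibroblasts lie between muscle, tendon and skin, carry transcription factors such as Osr1, Hic1 and Ebf2, and guide the muscle and tendon that form beside them. Lumican and osteoglycin are also made in the layers around cartilage, so neither gene alone marks the loose connective tissue.

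The genes targeted in the study come first. Slc2a1, the main glucose importer of most embryonic cells, had 29.1, 25.4, 106 and 134 CPM (UMIs of the gene per 1000000 UMIs) in members of E13.5WT, E14.5WT, E14.5G1KO and E14.5dKO, the order used for every set of 4 values below. Both Cre libraries are higher than both No cre libraries, opposite to a loss of transcript, with log2 ratios to E14.5WT of 2.06 (1.74 to 2.40) and 2.40 (2.08 to 2.74) (95% intervals in parentheses, which hold counting error only). In other kept cells too both Cre libraries are higher than both No cre libraries, with 49.3, 66.5, 354 and 442 CPM. The same holds in erythroid cells (42.5, 19.8, 118 and 145) and macrophages (32.8, 30.6, 86.1 and 123). Members of both Cre libraries are below the erythroid cells, and the part of UMIs from outside the cell was not tested. These libraries count tags near the 3' end of a transcript, which may lie outside the deleted stretch. The Slc2a1 levels therefore check neither the deletion nor its absence. Slc2a3 was scarce, at 7.36, 3.99, 4.57 and 11.5 CPM, and 1 cell holds 33 of the 45 UMIs in E14.5dKO. Results below are therefore stated for the library labelled with each genotype. Sex differs as well: a Y-linked gene was seen in 25.3, 63.5, 0 and 0% of members and Xist in 65.1, 0.471, 98.0 and 97.3%. E13.5WT is mixed, E14.5WT is male-like and both Cre libraries are female-like, so sex and genotype cannot be told apart at E14.5.

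Members made up 5.78% (5.38 to 6.21) of kept cells in E13.5WT, 4.57% (4.15 to 5.01) in E14.5WT, 6.82% (6.36 to 7.30) in E14.5G1KO and 5.24% (4.83 to 5.66) in E14.5dKO. With each cell thinned to 2000 UMIs the shares are 2.31, 1.75, 2.07 and 1.67%. E14.5G1KO is highest before thinning and E13.5WT after it, so the order of the libraries is not stable to depth. Median UMIs per member were 6236.5, 7180, 6298 and 5752. Much depends on the limits of the rule: Dcn, Lum and Ogn of 4 or more alone holds 11.7, 20.6, 21.9 and 21.1% of kept cells, and Matn1, a cartilage matrix gene, leaves out 27.8, 66.4, 54.7 and 64.7% of those. Just inside the threshold, 128, 86, 181 and 138 members have a sum of 4. Just outside it, 222, 116, 229 and 229 cells have a sum of 3.

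Against its 6 marker genes the label holds in part. Decorin itself, the gene in the name, was seen in 83.5, 60.2, 62.4 and 47.0% of members, or 63.5, 46.5, 46.1 and 37.4% at 2000 UMIs. Erythroid cells, which should lack it, show a Dcn UMI in 1.47, 1.10, 8.20 and 0% of cells at median depths of 7566.5, 8811, 7871 and 7893.5 UMIs. Thus 314 of 592 E14.5dKO members have no Dcn UMI and entered by Lum and Ogn, and the cells are called Dcn/Lum/Ogn-positive cells or members from here on. Lum was seen in 79.4, 73.4, 68.5 and 81.1% of them and Ogn in 40.6, 60.0, 59.1 and 45.6%. In erythroid cells a Lum UMI was seen in 5.15, 6.59, 27.9 and 17.5% and an Ogn UMI in 0.735, 2.20, 13.1 and 7.50%. Of the markers outside the rule, Hic1, a repressor found in quiescent mesenchymal progenitors, was seen in 56.2, 37.4, 37.4 and 23.1%. Ebf2, a transcription factor of connective tissue and fat precursors, was seen in 38.6, 41.4, 35.8 and 25.5%, and Aldh1a2, which makes retinoic acid, in 15.1, 14.8, 18.9 and 7.43%. Each of the 3 is rarest in E14.5dKO, also at 2000 UMIs, where Ebf2 was seen in 16.4, 16.9, 15.6 and 11.5% and Aldh1a2 in 6.83, 6.53, 8.73 and 3.79%. Hic1 was seen in 24, 12, 15 and 10% at that depth. For Hic1, E14.5WT and E14.5dKO are thus closer than before thinning.

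**Figure D1:**
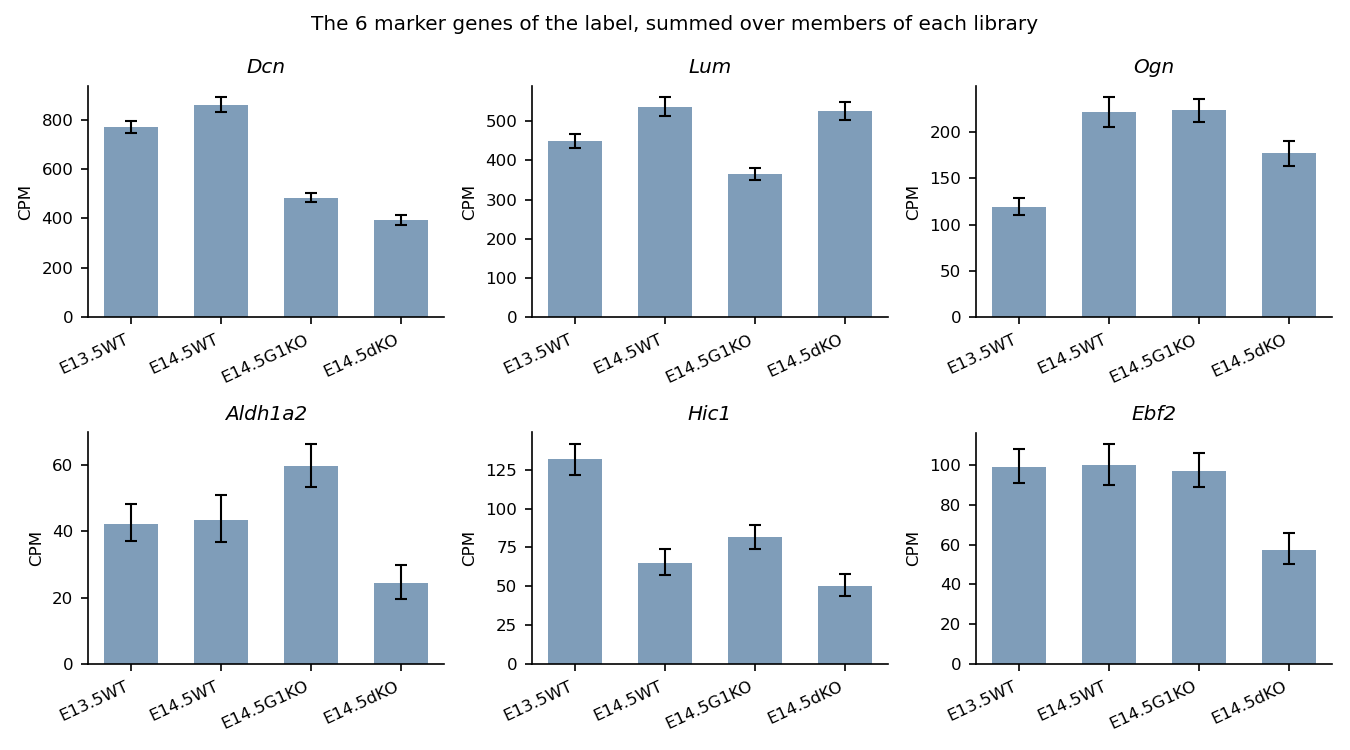
CPM (vertical axes) of the 6 marker genes, summed over the members of each library (horizontal axes). Lines are 95% intervals of the counts, and the rule itself used Dcn, Lum and Ogn.

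Members were split by whether a Dcn UMI is present, a split made after the values were seen and on a gene of the rule. Members without one must have 4 or more UMIs of Lum and Ogn, so the 2 sides are a description here and below. Osr1, which specifies irregular connective tissue, had 122, 72.4, 65.0 and 87.4 CPM in members with a Dcn UMI and 43.1, 3.77, 10.8 and 5.57 in those without. Hic1 had 146, 95.3, 113 and 101 CPM with a Dcn UMI against 70.2, 15.8, 29.4 and 9.29 without, and Ebf2 105, 152, 136 and 117 against 74.2, 14.3, 30.9 and 9.75. All 3 transcription factors are higher on the Dcn side in every library, by the least at E13.5. Among genes of 50 CPM or more on that side, those highest on it in all 4 libraries, after Osr1, were Pcdh17, Igfbp3, Dlk1, Agtr2 and Tcf7l2. Dlk1, a Notch-like protein of immature mesenchyme, had 2073, 4142, 3405 and 2697 CPM against 795, 1218, 977 and 897.

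The side without Dcn carries genes of cartilage and its border. Mia, secreted by chondrocytes, had 222, 913, 695 and 1092 CPM there and 38.3, 44.4, 87.7 and 129 in members with a Dcn UMI, and matrilin 4 (Matn4) had 242, 577, 402 and 837 against 58.9, 51.7, 65.3 and 182. Mgp, an inhibitor of mineralization, and the transcription factors Foxp2 and Foxc1 are also among the 6 lowest on the Dcn side, with Cthrc1, of genes with 50 CPM or more on the other side. Cartilage collagen Col2a1 had 229.7, 1065, 793 and 1217 CPM without a Dcn UMI and 119.7, 117, 178 and 263 with one. Ecrg4 had 8.02, 561, 406 and 353 against 1.13, 34.8, 48.4 and 52.0 CPM, and type I collagen (Col1a1) 527, 2126, 2605 and 1962 against 439, 838, 1006 and 859.6. For Mia, Matn4, Col2a1 and Col1a1 the contrast is smaller at E13.5 than in any of the 3 libraries of E14.5, and for Ecrg4 it is not. Of the 15 chondrocyte markers, 13, 14, 14 and 14 have a UMI in members, with Matn1 at 0 by the rule. Their summed level is 518, 1700.0, 1439 and 2712 CPM and their most abundant gene is Col2a1. In the chondrocyte class (Matn1 and Col2a1 positive), Lum was seen in 50.9, 58.6, 59.5 and 62.6% of cells and Dcn in 5.15, 5.40, 7.19 and 3.85%, at median depths of 8467, 8532, 8170.5 and 8015.5 UMIs. Erythroid cells, which should lack Col2a1, had 362, 658, 1972 and 1108 CPM of it. Members without a Dcn UMI are below that level in E13.5WT and E14.5G1KO and above it in E14.5WT and E14.5dKO. Members with a Dcn UMI are below it in every library. The part of the chondrocyte markers, or of UMIs from outside the cell, in the split was not tested.

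**Figure D2:**
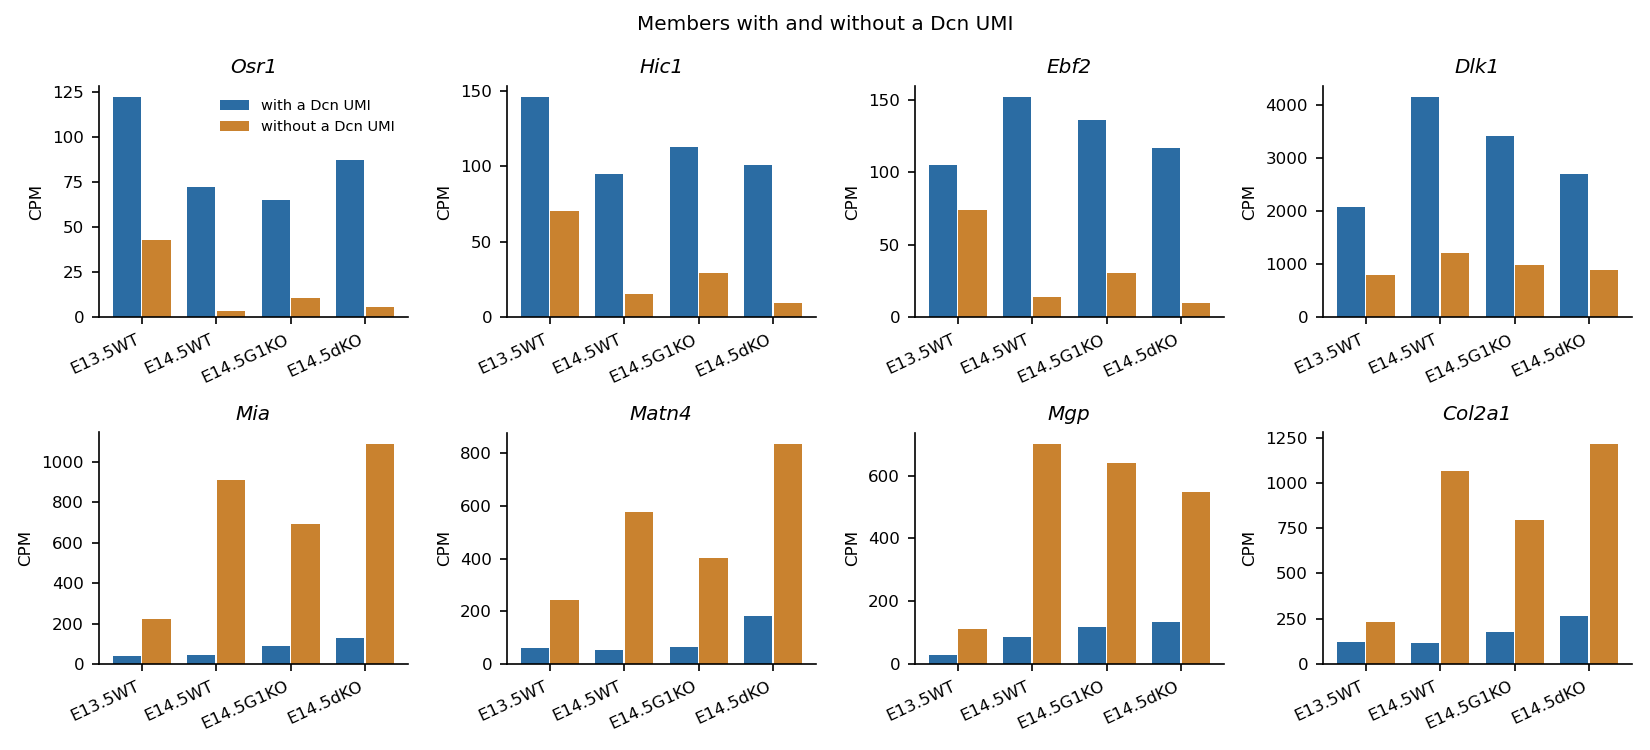
CPM (vertical axes) of 8 genes in members with (blue) and without (orange) a Dcn UMI in each library (horizontal axes). The split was made after the values were seen.

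Splits by Hic1, Ebf2, Osr1 and Aldh1a2 also have Mia and Col2a1 or Col9a3 among the genes lowest in positive members. The split by Aldh1a2 is not the split by Dcn at E13.5, where Aldh1a2-positive members are lower in Dcn (582 against 807 CPM) and Osr1 (65.6 against 116). Hic1 and Ebf2 are seen together: 65.8, 56.8, 58.5 and 49.7% of members with an Ebf2 UMI have a Hic1 UMI, against 50.2, 23.7, 25.6 and 14.1% of those without. Median depths are 6890.5, 8159.5, 7057 and 5571 UMIs with an Ebf2 UMI and 5983, 6821, 5936 and 5767 without. The part of depth in this was not tested. Members with an Aldh1a2 UMI stand apart by Nrp1, a co-receptor of semaphorins and Vegf, at 62.3, 143, 150.1 and 135 CPM against 28.8, 58.2, 52.3 and 44.1. They are also higher in Cebpd, Btg2, Zeb2, Cxcl12 and Cebpb in all 4 libraries.

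Some Aldh1a2 members carry Emcn, which encodes a sialomucin best known from endothelium. Emcn was seen in 1.81, 8.71, 13.9 and 8.11% of members, and an Aldh1a2 UMI in 38.5, 43.2, 53.3 and 35.4% of Emcn-positive members, which are only 13 cells in E13.5WT. Without Emcn the share with Aldh1a2 is 14.7, 12.1, 13.3 and 4.96%. Median depths at E14.5 are 8216, 7834 and 6186 UMIs in members with 2 or more Emcn UMIs and 7179, 6118 and 5752 without Emcn. The part of depth was not tested. Members with 2 or more Emcn UMIs number 27, 81 and 28 at E14.5, and their highest genes, among those of 50 CPM or more in them, are Cxcl13, a chemokine (232, 82.3 and 152 CPM against 3.44, 3.49 and 5.30 in members without Emcn), Otor, Grb14, Aldh1a2, Akap12 and Fxyd7. Defining endothelial genes are low in them: Cdh5 had 0, 5.78 and 14.7 CPM and Pecam1 0, 7.22 and 14.7. Split by Aldh1a2 instead, members with and without a UMI had 0.888 and 0.691 CPM of Cdh5 in E14.5G1KO and 0 and 0.837 in E14.5dKO. For Pecam1 these were 5.33 and 2.76 in E14.5G1KO and 9.45 and 3.90 in E14.5dKO. In both Cre libraries the 2 genes are thus higher in the Emcn members than on either side of that split. Of members that pass the endothelial gate, 19 of 20, 52 of 61 and 14 of 18 pass by Emcn alone, whereas the 3 such members of E13.5WT carry other endothelial genes too. Emcn over all members was 3.13, 33.9, 75.7 and 31.8 CPM, with a log2 ratio to E14.5WT of 1.15 (0.86 to 1.46) in E14.5G1KO and -0.09 (-0.47 to 0.28) in E14.5dKO. With the rule applied after thinning the ratios are 0.77 and 0.95, so which Cre library is higher depends on the rule.

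Members with a high sum of Dcn, Lum and Ogn are most numerous in E14.5WT. Members with 32 or more Dcn, Lum and Ogn UMIs number 19, 46, 1 and 1, and those of E14.5WT hold 524644 of its 3508721 member UMIs. The 46 in E14.5WT are high in the neurotrophin receptor Ngfr (152 against 13.7 CPM in other members), in Tmeff2 (166 against 9.72) and in Mfap5, a microfibril protein (309 against 34.5). Lipoprotein lipase (Lpl) and Chodl, a C-type lectin, are high there too, at 164 CPM each against 39.2 and 34.5. The lowest genes in them include Ecrg4 at 0 against 275 CPM, Mgp at 5.72 against 373 and Mia at 9.53 against 436. The 19 in E13.5WT share this in part: Ngfr (53.1 against 11.9) and Chodl (92.9 against 20.9) are higher in them, but the intervals for Tmeff2 (35.4 against 23.2), Mfap5, Lpl, Ecrg4 and Mgp (35.4 against 44.4) reach 0. Ngfr is also one of 10 glial and neuronal markers, whose summed level in members is 35.7, 73.0, 29.4 and 24.8 CPM, with Ngfr the most abundant except in E14.5dKO (Stmn2) and Foxd3 at 0 in E14.5G1KO. Against E14.5WT, 3 of the 5 tested are past 2-fold lower in E14.5G1KO (1.26% of all genes) and 4 of 5 in E14.5dKO (2.46% of all genes). In the 4 libraries 0, 1, 1 and 0 members pass the glial gate. The part of these markers was not tested. Because 1 library stands for each genotype, comparisons with E14.5WT below are also given without these cells where it matters, an alternative added after the values were seen.

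As a reference within each library, Dcn-low mesenchyme was taken as cells with at most 1 UMI of Dcn, Lum and Ogn, a Prrx1 UMI, 10 or more UMIs of Col1a1, Col1a2 and Col3a1 and the same limits on the other genes of the rule (786, 386, 421 and 340 cells). Cells passing a gate of a non-mesenchymal type were left out of the reference, whereas 22, 37, 86 and 26 members pass one and were kept. The rule set this contrast, so it is a description, and 4 libraries of unlike condition cannot reach 0.05 in an exact sign-flip test (smallest p 0.125). Of 10533 genes, 23 (0.218%) are past 2-fold higher in members in all 4 libraries and 15 (0.142%) lower, and 3 of the 23 are Dcn, Lum and Ogn, set by the rule. Emcn, a gene of the endothelial gate, and the muscle marker Tnnt1 are among the 23 too, and the part of gated cells in this was not tested. The genes named next were ranked by their weakest ratio among those of 50 CPM or more in members or reference in every library, and most are not past 2-fold in all 4. Dkk2, a Wnt inhibitor, had 82.3, 77.8, 109 and 66.9 CPM in members and 36.6, 29.7, 45.5 and 24.8 in the reference, and Agtr2, an angiotensin receptor, 74.0, 141, 165 and 105 against 34.6, 53.1, 74.0 and 40.4. Hic1 (132, 65.3, 81.5 and 50.5 against 66.5, 21.5, 40.7 and 27.5) and Ebf2 (99.4, 100.3, 97.1 and 57.6 against 52.9, 27.9, 59.3 and 24.3) are among the 12 highest by this ranking, with Tubb2b, Tmem158, Tshz2, Egfl6, Tril, Gsta4, Myl9 and Map1b. Against the tendon class instead, members are lower in all 4 libraries for Map1b (157, 145, 127 and 97.9 against 175, 200.3, 248 and 249) and Tril. The 12 lowest by it hold cartilage genes, Sox9 (85.4, 129, 107 and 175 against 201, 274, 211 and 277), Sox6, Col2a1, Col9a2, Col9a3 and Wwp2, and also Trps1, Foxp1, Foxc1, Sulf1, Igfbp7 and Fgfrl1. Connective tissue transcription factors as a list go both ways, with 9 of 38 higher and 9 lower in all 4 libraries. By any size, 13.1% of all genes are higher and 14.9% lower in all 4, so both shares of that list are larger. Of 26 G2M genes 18 are lower and 0 higher, of 13 glycolysis enzymes 7 and 0, and of 14 interzone markers 10 and 0. Aldh1a2 differs by library, at 42.3, 43.3, 59.6 and 24.3 CPM in members against 56.3, 15.8, 17.8 and 16.2. It is lower than the reference in E13.5WT and higher in E14.5WT and E14.5G1KO, while the interval in E14.5dKO (0.57 (-0.02 to 1.23)) reaches 0.

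Between E13.5 and E14.5 without Cre, many matrix genes are higher in members. Of 11827 genes, 507 (4.29%) are past 2-fold higher in E14.5WT and 439 (3.71%) lower, and 7.14% are past it in either direction with an interval that does not reach 0. Of the network and fibril-associated collagens, which link and coat fibrils, 11 of 12 are past 2-fold higher, with a median log2 ratio of 1.37 beside -0.09 over all genes tested, but 0.30 with Dcn+Lum+Ogn alone as the rule. Col12a1, which decorates type I fibrils, had 61.3, 276, 259 and 266 CPM, and Col14a1, with the same role, 16.2, 73.0, 74.0 and 84.5. The type VI chain Col6a3, a pericellular network, had 149, 332, 323 and 200.1. E13.5WT is the low library for all 3. Mural markers move with them: 7 of 7 tested are above 0 and 6 past 2-fold higher (median 1.58), with a summed level of 47.7, 126, 109 and 85.6 CPM, Notch3 the most abundant in E13.5WT and Cspg4 in the others, and Vtn at 0 in all 4 libraries and Higd1b at 0 outside E14.5WT. In Dcn-low mesenchyme, which holds no gated cells, the mural markers sum to 53.1, 136, 112 and 81.9 CPM, close to members. Other kept cells are higher, at 103, 286, 311 and 266. Without members that pass any non-mesenchymal gate, the mural one among them, the collagen median is 1.26, and the part of mural markers in the rest was not tested. All 18 fibrillar collagen and processing genes tested are above 0 (median 0.74), but only 2 are past 2-fold higher, beside 4.29% of all genes. Col1a1, which rose most of them, had 455, 1325, 1602 and 1468 CPM, and the crosslinking enzyme Lox 12.9, 36.2, 40.0 and 24.8. Elastin (Eln) had 33.7, 139, 195 and 168 and periostin (Postn), a fibril-binding protein, 147, 361, 433 and 320.2. The collagen rise with age is not particular to members. Summed network and fibril-associated collagens go from 658 to 1513 CPM in members, 498 to 1184 in Dcn-low mesenchyme and 454 to 782 in other kept cells. Fibrillar collagens and processing genes go from 4430.3 to 7407, 3765 to 6242 and 3001 to 4864. Within members the collagen rise is seen on both sides of the split, where 10 of 11 network collagens are above 0 each time, 9 past 2-fold higher with a Dcn UMI and 6 without.

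Other rises are larger on 1 side. Biglycan (Bgn) had 78.2, 391, 343 and 327 CPM without a Dcn UMI and 40.8, 91.1, 104 and 109.7 with one, and fibromodulin (Fmod) 5.01, 63.4, 46.6 and 43.2 and 4.06, 5.50, 11.1 and 6.85. For both genes the rise with age lies mostly in members without Dcn. Of 12 chondrocyte markers tested, 12 are above 0 and 11 past 2-fold (median 1.89), against a median of 0.37 with a Dcn UMI and 2.44 without. Among genes with 50 CPM and 50 UMIs or more in either library, Ecrg4 rose most and went from 2.39 to 234 CPM (6.56 (5.83 to 7.52)). In that ranking it is followed by Mfap5, Sparcl1, Mgp, Ifi27, Cytl1, Thbs2, Anxa1, Emp1 and Mia. Without the highest members Mfap5 goes from 3.49 to 2.43, below Sparcl1, Mgp, Ifi27, Cytl1, Thbs2, Anxa1, Emp1 and Mia. On the Dcn side Mfap5 had 7.44, 119.5, 41.7 and 25.7 CPM, and the growth factor Igf1 had 100.3, 458, 475 and 411. Dcn, Lum, Kera and Epyc lie in a row on mouse chromosome 10 and Ecm2, Aspn, Omd and Ogn on chromosome 13. Outside the rule genes, Kera fell (-1.41 (-2.07 to -0.84)) and Aspn rose (1.29 (1.06 to 1.53)).

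Single transcription factors fall with age. The median of connective tissue transcription factors as a list is near that of all genes (-0.11 beside -0.09), though not with Dcn+Lum+Ogn alone as the rule (-1.01 beside -0.18). Of 39 tested, 14 are above and 25 below 0. Past 2-fold, 1 is higher and 5 lower, beside 4.29 and 3.71% of all genes. Hand2, a transcription factor of the posterior limb bud, had 90.4, 15.7, 9.69 and 18.2 CPM, and its neighbour transcript Hand2os1 fell with it (-2.98 (-3.52 to -2.51)). Pitx1, which gives the hindlimb its identity, had 475, 246, 237 and 271, and Twist2, an inhibitor of differentiation, 105, 38.2, 52.8 and 66.9. Osr1 (107, 46.5, 44.8 and 42.3) and Hic1 (132, 65.3, 81.5 and 50.5) also fell, by less among members with a Dcn UMI (-0.75 (-1.01 to -0.49) and -0.61 (-0.85 to -0.39)) than over all members (-1.20 (-1.47 to -0.95) and -1.01 (-1.24 to -0.80)). Division genes are lower: 26 of 26 G2M genes are below 0, with a median of -0.62. With Dcn+Lum+Ogn alone as the rule their median is -0.09 beside -0.18 over all genes. Ube2c, which drives exit from mitosis, had 358, 179.6, 208 and 275. The histone transcript Hist1h2ap had 504, 44.2, 46.3 and 68.1. The median of glycolysis enzymes is near that of all genes (-0.12 beside -0.09), though not with Dcn+Lum+Ogn alone as the rule (0.43 beside -0.18). Of 14 tested, 2 are past 2-fold higher and 1 lower. Hexokinase 2 (Hk2) is up at 16.6, 59.9, 71.7 and 70.4 CPM and Eno1 down at 122, 53.9, 57.0 and 56.4. Hypoxia targets have a median of 0.25, with 19 of 27 above 0.

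**Figure D3:**
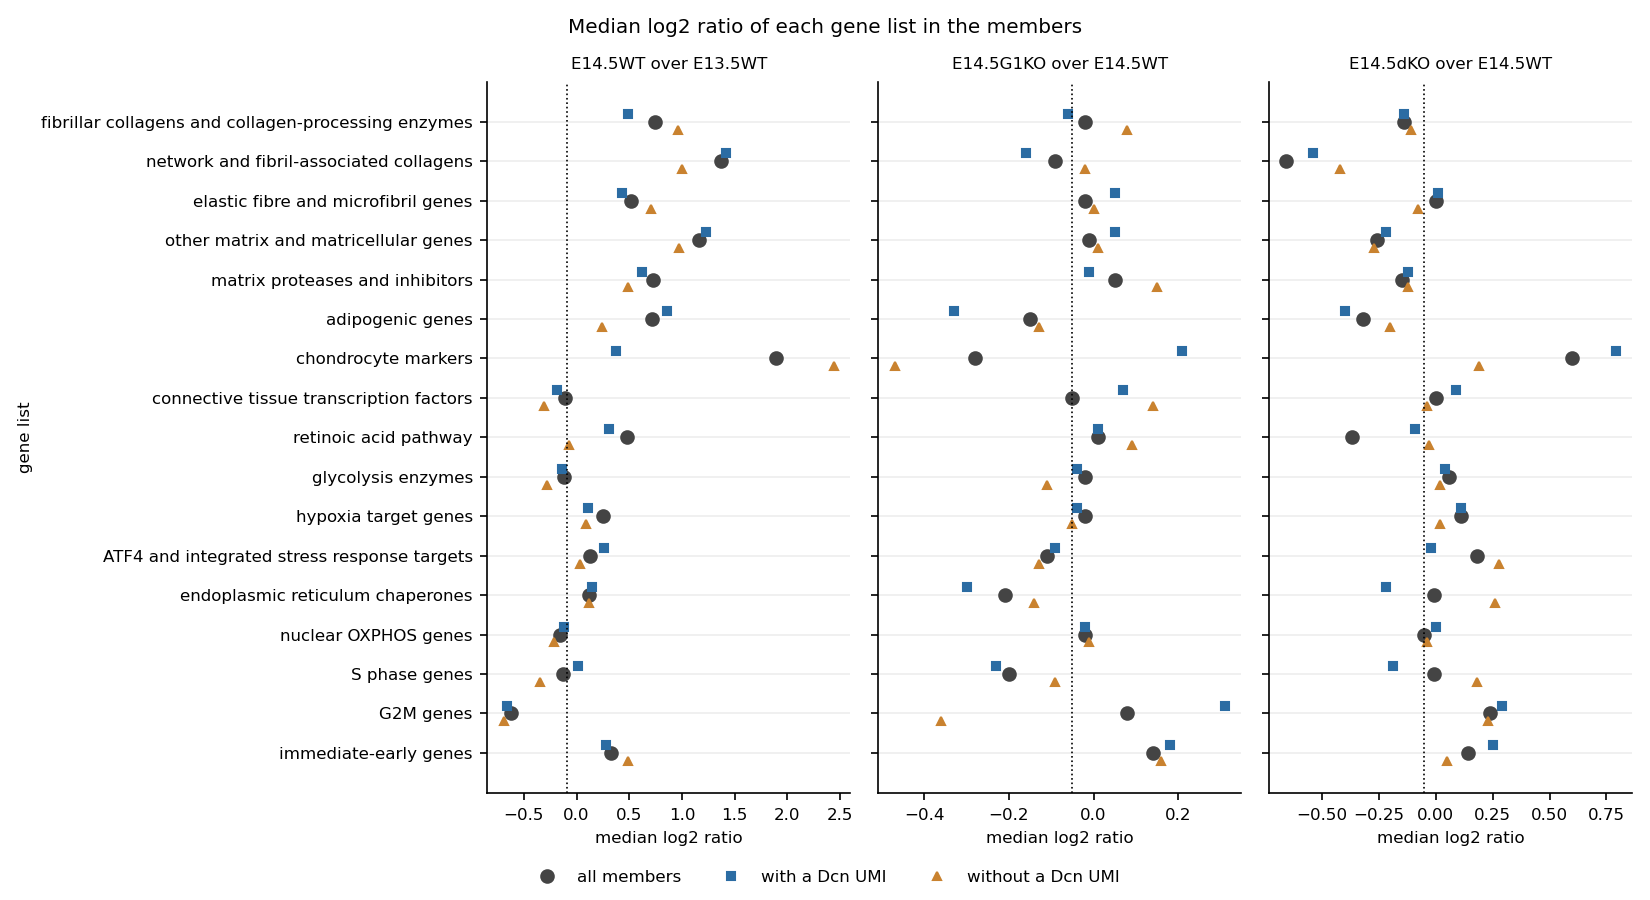
Median log2 ratio (horizontal axes) of the genes of each list (vertical axis) for the 3 comparisons, over all members, members with a Dcn UMI and members without. The dotted line is the median over all genes tested in all members.

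Both Cre comparisons use E14.5WT, so a value unusual in that library enters both, and their values are set side by side with no count of what they share. In E14.5G1KO, 178 of 11825 genes (1.51%) are past 2-fold higher and 149 (1.26%) lower, and 2.12% are past it in either direction with an interval that does not reach 0. In E14.5dKO, 160 of 11399 (1.40%) are higher and 280 (2.46%) lower, and 3.03% are past it in either direction with an interval that does not reach 0. Some large rises in E14.5G1KO are carried by few cells: 2 cells hold 303 of 356 Actc1 UMIs, 1 cell holds 311 of 469 Apoe UMIs, and 1 cell holds 10113 of 10360 hemoglobin UMIs. Over 15 muscle markers the summed level in members is 592, 108, 539 and 72.8 CPM, with Actc1, Tnnt1, Mylpf and Tnnt1 the most abundant, and Pax7, Myf5 and Tnnt2 at 0 in E14.5dKO. Other rises are Slc2a1, Emcn, Fxyd7 (66.1, 45.3, 77.3 and 66.6) and Tmem100 (17.9, 54.4, 91.0 and 33.6).

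Penk, Mfap5 and Chodl show how far the highest members of E14.5WT set the ratios. Penk, the precursor of enkephalins, had 76.0, 241, 102 and 147 CPM: E14.5WT is high and both Cre libraries are lower. Its log2 ratio in E14.5G1KO is -1.24 (-1.39 to -1.08), and -0.71 (-0.88 to -0.53) without members of 32 or more, and in E14.5dKO -0.71 (-0.87 to -0.56) and -0.19 (-0.37 to -0.01). Among members with a Dcn UMI the Penk ratios are larger, at -1.78 in E14.5G1KO and -1.67 in E14.5dKO. Mfap5, at 6.63, 75.5, 30.2 and 11.8, has -1.32 (-1.61 to -1.04) in E14.5G1KO but -0.19 (-0.55 to 0.18) without those members, whereas in E14.5dKO it is -2.67 (-3.16 to -2.22) and stays low at -1.54 (-2.08 to -1.03). Chodl, at 23.9, 53.9, 32.5 and 8.71, has -0.73 (-1.03 to -0.42) and -2.61 (-3.20 to -2.10), and -0.08 (-0.44 to 0.28) and -2.01 (-2.64 to -1.45) without them. Mfap5 and Chodl were named above as genes high in the 46 cells, so smaller ratios without those cells are expected. In E14.5dKO both stay low all the same. Dcn had 769, 860.1, 483 and 392 CPM and, as a gene of the rule, is not compared in this way.

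Other genes are low in 1 or both Cre libraries with and without those cells. Id1, a target of Bmp signaling, had 329.9, 258, 162 and 151 CPM, with log2 ratios of -0.59 (-0.73 to -0.45) and -0.69 (-0.85 to -0.53) without the highest members and -0.83 (-1.01 to -0.66) and -0.73 (-0.94 to -0.52) with a Dcn UMI. AI506816, a noncoding transcript, is low only in E14.5G1KO, at 49.7, 63.0, 9.69 and 68.4. Rbp4, the retinol carrier, had 25.4, 79.5, 44.2 and 31.3, with -0.55 (-0.83 to -0.27) and -1.10 (-1.44 to -0.76) without the highest members. Both Cre libraries are lower than E14.5WT for Id1 and Rbp4. In the other direction Aspn, a proteoglycan that restrains Tgfb and Bmp ligands, had 46.4, 114, 173 and 175, with ratios of 0.60 (0.43 to 0.77) and 0.63 (0.45 to 0.81) over all members, 0.37 (0.20 to 0.54) and 0.41 (0.23 to 0.59) without the highest members and 1.03 (0.77 to 1.30) and 1.21 (0.92 to 1.50) with a Dcn UMI. Tbx3, a transcription factor of limb patterning, had 21.2, 10.8, 19.4 and 23.8 CPM, with 0.60 (0.06 to 1.19) and 0.90 (0.35 to 1.49) without the highest members. For Aspn the Cre libraries are the high ones, and for Tbx3 E14.5WT is the low one.

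In the library labelled E14.5dKO members are low in type VI and several other network collagens, by more than in E14.5G1KO. Network and fibril-associated collagens have a median log2 ratio of -0.66 beside -0.05 over all genes, with 9 of 12 below 0 and 2 past 2-fold lower. In E14.5G1KO 9 of 12 are below 0 as well, none past 2-fold (median -0.09), and after thinning the medians are -0.47 in E14.5G1KO and -0.78 in E14.5dKO. E14.5dKO is low outside members too. In E14.5WT, E14.5G1KO and E14.5dKO the list sums to 1513, 1428 and 1121 CPM in members. In Dcn-low mesenchyme it sums to 1184, 1088 and 1029, and in other kept cells to 782, 701 and 542. The 3 type VI chains had 119, 242, 227 and 137 (Col6a1), 82.1, 179.8, 177 and 110.2 (Col6a2) and 149, 332, 323 and 200.1 (Col6a3) CPM, with ratios in E14.5dKO of -0.82 (-0.98 to -0.66), -0.71 (-0.89 to -0.53) and -0.73 (-0.86 to -0.60). Col4a1, of basement membranes, had 53.0, 116, 95.6 and 65.3 (-0.83 (-1.06 to -0.60)), and Col8a1, of short-chain networks, 9.76, 31.1, 22.3 and 9.48 (-1.70 (-2.29 to -1.16)). Col15a1, of the basement membrane zone, goes the other way, at 2.76, 7.98, 5.67 and 15.9 (0.98 (0.33 to 1.69)). The list median is -0.54 with a Dcn UMI, -0.42 without and -0.44 without the highest members. Col6a1, Col6a2, Col6a3 and Col4a1 have -0.66 (-0.85 to -0.47), -0.58 (-0.80 to -0.37), -0.54 (-0.70 to -0.39) and -0.72 (-1.02 to -0.43) with a Dcn UMI and -0.50 (-0.81 to -0.19), -0.31 (-0.66 to 0.04), -0.42 (-0.69 to -0.15) and -0.74 (-1.12 to -0.35) without. Col6a1 and Col6a3 have -0.60 (-0.77 to -0.43) and -0.45 (-0.59 to -0.30) without the highest members. Mural markers are low too, with 6 of 7 tested below 0 and 3 past 2-fold lower in E14.5dKO (median -0.82, Rgs5 lowest), and -0.26 in E14.5G1KO. Without members passing a non-mesenchymal gate the collagen median in E14.5dKO is -0.58, and the part of mural markers in the rest was not tested. Fibrillar collagens differ less, with a median of -0.14 and 12 of 18 below 0. Lamb1, a laminin chain of basement membranes, had 104, 116, 86.7 and 49.7 (-1.22 (-1.47 to -0.97)). Fibronectin (Fn1) had 307, 304, 290.0 and 204 (-0.58 (-0.71 to -0.44)). E14.5dKO is the lowest of the 3 libraries of E14.5 for the type VI chains, Col4a1, Col8a1, Lamb1 and Fn1.

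Regulators and signals low in E14.5dKO include Zeb2, a transcription factor of mesenchymal state (50.6, 88.4, 75.1 and 41.0), Spry1, a brake on Fgf receptors (78.8, 70.1, 44.8 and 28.2), and Rarres2, the chemoattractant chemerin (32.6, 70.1, 61.6 and 30.5). Their ratios with a Dcn UMI are -0.87 (-1.23 to -0.53), -1.20 (-1.62 to -0.81) and -0.86 (-1.23 to -0.52). Dlk1 is -0.62 (-0.67 to -0.57) on that side. The adipogenic list has 3 of 11 past 2-fold lower, beside 2.46% of all genes, and a median of -0.32 beside -0.05, and the retinoic acid list a median of -0.37 (but -0.09 with a Dcn UMI). Hic1, Ebf2 and Aldh1a2 over all members are -0.37 (-0.65 to -0.09), -0.80 (-1.05 to -0.55) and -0.83 (-1.22 to -0.45), and 0.09 (-0.21 to 0.38), -0.39 (-0.65 to -0.13) and -0.34 (-0.76 to 0.06) among members with a Dcn UMI. All 3 are nearer 0 there, and the reason was not tested. None of these ratios separates genotype from sex or from the library.

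Cartilage genes are high in E14.5dKO members. Matn4 had 92.4, 250.2, 191 and 543 CPM (1.12), Col9a3 79.9, 306, 251 and 602 (0.98 (0.87 to 1.08)) and Sox6, a partner of Sox9, 16.4, 27.9, 23.4 and 54.1 (0.95 (0.60 to 1.31)). Of 13 chondrocyte markers tested 11 are above 0, 1 past 2-fold lower and none past 2-fold higher (median 0.60, but -0.28 with Dcn+Lum+Ogn alone as the rule). The rise is seen with a Dcn UMI (median 0.79, Matn4 1.81 (1.50 to 2.14)) and less without one (median 0.19). In E14.5G1KO 12 of 13 are below 0 over all members (median -0.28), but with a Dcn UMI 9 of 11 are above 0 (median 0.21), so the sign of this list depends on which members are kept. Summed over all other kept cells the chondrocyte markers have 4558, 15547, 13799 and 14642 CPM. Erythroid cells, which should lack cartilage genes, had 179, 341, 764 and 602 CPM of Col9a3 and 362, 658, 1972 and 1108 of Col2a1. Members are not above erythroid cells for either gene in any library. The part of chondrocyte markers, or of UMIs from outside the cell, in the values of the members was not tested.

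**Figure D4:**
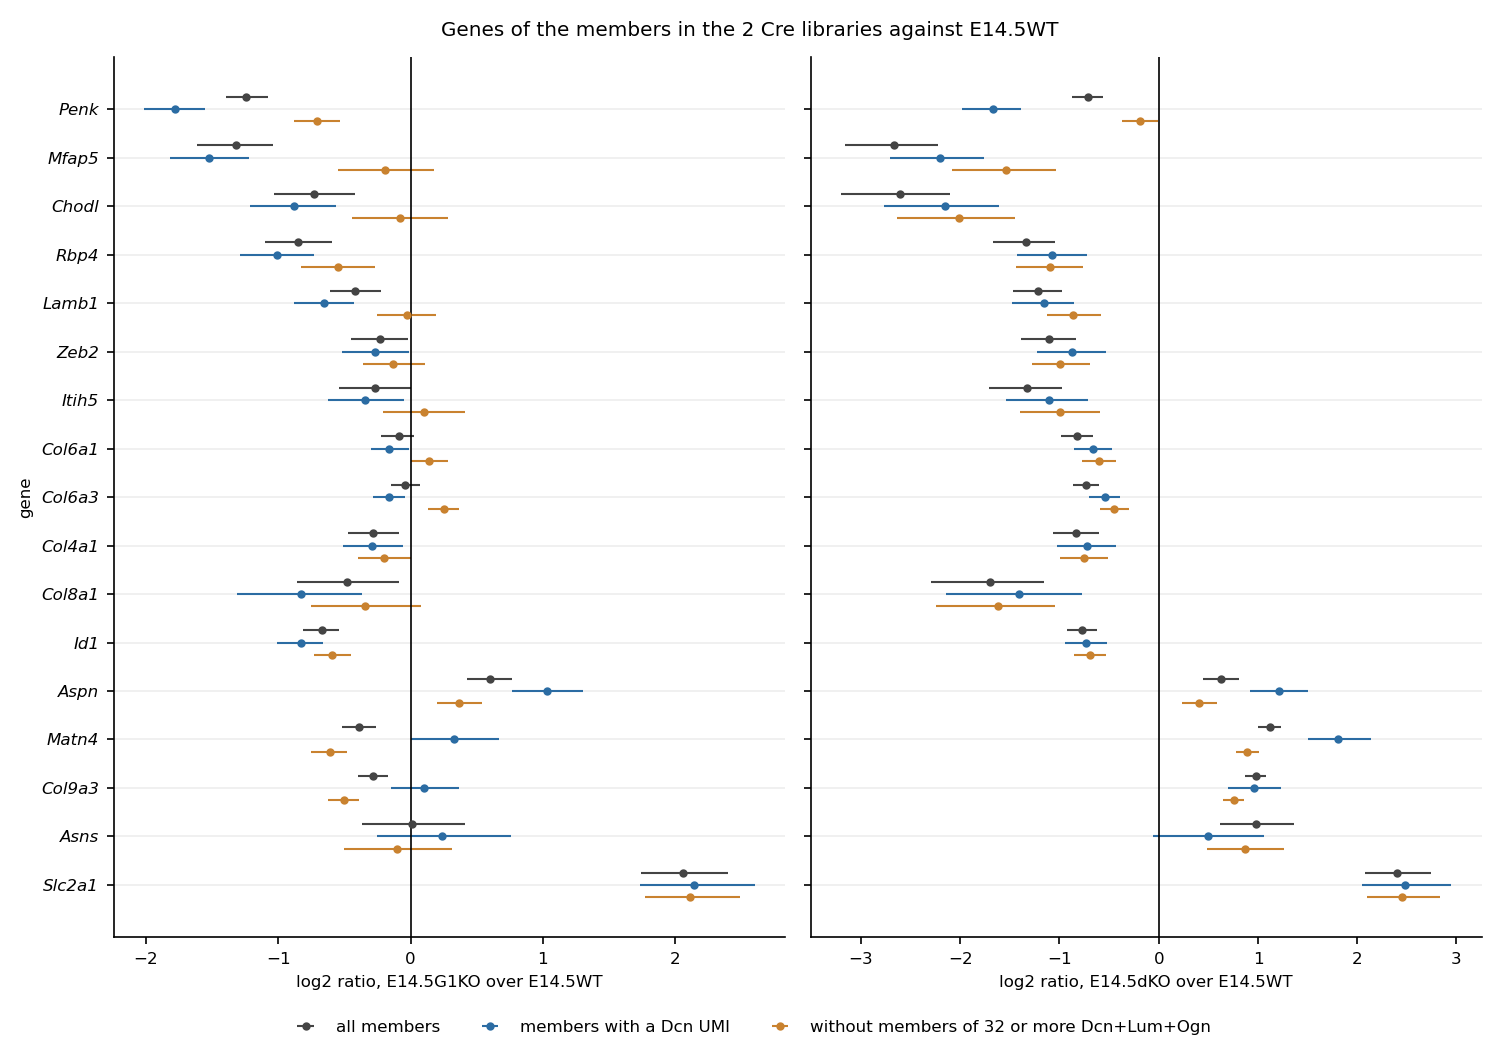
Log2 ratios (horizontal axes) of 17 genes (vertical axis) in E14.5G1KO and E14.5dKO over E14.5WT for all members, members with a Dcn UMI, and members left after those with 32 or more Dcn, Lum and Ogn UMIs are removed. Lines are 95% intervals of the counts.

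Energy genes differ little between members of the 3 libraries of E14.5, and stress genes differ by list and side. Glycolysis enzymes have medians of -0.02 in E14.5G1KO and 0.06 in E14.5dKO, beside -0.05 over all genes in each, and none of the 14 is past 2-fold. Gapdh, for instance, had 1387, 1234, 1232 and 1406 CPM and lactate dehydrogenase (Ldha) 447, 527, 454 and 512. Nuclear OXPHOS genes have -0.02 and -0.05, with none of 71 past 2-fold, and hypoxia targets -0.02 and 0.11. Among targets of the stress factor Atf4, Asns, which makes asparagine, had 28.2, 25.7, 26.0 and 50.7 CPM: E14.5dKO is high and the others are alike. Its ratio in E14.5dKO is 0.98 (0.62 to 1.36) over all members, 1.18 (0.67 to 1.76) without a Dcn UMI and 0.50 (-0.06 to 1.06) with one, where the interval reaches 0. The list has 22 of 32 above 0 (median 0.18) in E14.5dKO and 10 of 30 above 0 (median -0.11) in E14.5G1KO. On the Dcn side its median in E14.5dKO is -0.02, and without Dcn it is 0.28. Over all members it is -0.05 after thinning but 0.90 with Dcn+Lum+Ogn alone as the rule. That rule gives 0.46 in E14.5G1KO. Endoplasmic reticulum chaperones are lower in E14.5G1KO for 18 of 20 genes (median -0.21, but 0.11 with Dcn+Lum+Ogn alone as the rule) and in E14.5dKO for 10 of 20. They are led in abundance by Hsp90b1 (842, 976, 707 and 951) and Hspa5 (786, 896, 688 and 878). The 2 sides differ in E14.5dKO, with 16 of 20 below 0 with a Dcn UMI (median -0.22) and 17 of 20 above 0 without (median 0.26), and over all members the median of -0.01 becomes -0.27 after thinning and 0.66 with Dcn+Lum+Ogn alone.

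The direction of division genes depends on the rule. In E14.5G1KO 17 of 26 G2M genes are above 0 (median 0.08) and in E14.5dKO 25 of 26 (median 0.24), but the medians in the same order are -0.29 and -0.24 after thinning, -0.15 and -0.04 with 2 or more Dcn+Lum+Ogn UMIs, and -0.37 and -0.34 with Dcn+Lum+Ogn alone. Ube2c has 0.21 (0.07 to 0.36) in E14.5G1KO and 0.61 (0.47 to 0.76) in E14.5dKO. With a Dcn UMI the medians are 0.31 and 0.29. Without one they are -0.36 and 0.23, so in E14.5G1KO the 2 sides move apart. S phase genes are below 0 for 21 of 25 in E14.5G1KO (median -0.20) and 15 of 25 in E14.5dKO (median -0.01), where 17 of 25 are below 0 with a Dcn UMI (median -0.19) and 19 of 25 above 0 without (median 0.18). The medians of the collagen lists differ more between the 2 ages than between E14.5WT and either Cre library under the rule, but with Dcn+Lum+Ogn alone network collagens have 0.30 with age and -0.55 in E14.5dKO. At E14.5 many ratios shrink when members are split by Dcn or the highest members are left out, those of type VI collagen in E14.5dKO among them. Others grow among members with a Dcn UMI, such as Aspn in both Cre libraries and Matn4 and Penk in E14.5dKO. Col6a1, Col6a3 and Col4a1 stay below 0 on both sides of the split in E14.5dKO, and the interval of Col6a2 reaches 0 without a Dcn UMI.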

How the data were processed

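Gene-by-cell UMI counts deposited by the authors were used (10x Genomics 3' v3.1, Cell Ranger, mm10; the authors' own analysis used Seurat 3). The study's filters were applied, 200 to 6000 detected genes per barcode and no more than 10% of UMIs from mitochondrial genes. Libraries share 25 to 40 barcodes per pair and no member barcode. No doublet caller was run, and members passing gates of other cell types were kept and left out in an alternative. Member UMIs were summed per library and scaled to CPM, and log2 ratios used a prior count of 0.5 for genes with 20 or more UMIs in both groups together. With 1 library per group no p-value is given, and intervals are exact conditional, Poisson or binomial. Members, gene lists and the rule for named genes (markers, list genes by abundance or fold, and the largest differences) were fixed with earlier results of these data known. Alternatives changed the rule, cell filter, scaling (edgeR 4.0.16 TMM factors) and count minimum. Python 3.11.15, numpy 2.4.6, scipy 1.17.1, pandas 2.3.3 and R 4.3.3 were used. Gene positions are from RefSeq (GRCm38.p6).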

Additional observations from a re-analysis of the deposited data

How the results depend on the processing

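Each genotype and age is 1 library, so no value here separates genotype, sex or age from the library, and intervals hold counting error only. E14.5WT enters both Cre comparisons, and its sex differs from theirs. The 3' tags do not check the deletions. UMIs of Dcn, Lum and Ogn both choose members and depend on depth. Members hold a mixture that changes with the rule.

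Shares move with the rule. With 2 or more Dcn+Lum+Ogn UMIs they are 10.8, 7.93, 11.9 and 9.82% in the order above, with 8 or more 2.76, 2.02, 2.44 and 1.65%, with the rule applied after thinning 2.31, 1.75, 2.07 and 1.67%, and with Dcn+Lum+Ogn alone 11.7, 20.6, 21.9 and 21.1%. With a stricter filter on cells E13.5WT has 6.45%, and in the denominator without non-mesenchymal cells E13.5WT has 6.22% and E14.5G1KO 7.45%. Without members passing a non-mesenchymal gate E14.5G1KO has 6.05%.

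Counts of genes past 2-fold follow the minimum of UMIs. At 100 UMIs per gene the age comparison has 198 higher and 141 lower, E14.5G1KO 33 and 18, and E14.5dKO 19 and 49, and with no minimum 2312 and 1494, 1245 and 1707, and 1976 and 2115. With Dcn+Lum+Ogn alone 1282 are lower with age, 282 higher in E14.5G1KO and 440 lower in E14.5dKO, and after thinning 237 are lower in E14.5G1KO. Against Dcn-low mesenchyme the higher and lower counts, 23 and 15 in the main fit, are 52 and 30 after thinning, 89 and 37 with Dcn+Lum+Ogn alone, 38 and 47 without members with many Col2a1 UMIs, 72 and 84 without members lacking a Dcn UMI, 10 and 3 at 100 UMIs and 76 and 57 with no minimum, and 25 are lower with 8 or more Dcn+Lum+Ogn UMIs.

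With Dcn+Lum+Ogn alone, which lets in Matn1-positive cells, list medians with age become -0.08 for elastic fibre genes, -0.40 for the retinoic acid pathway, -0.35 for adventitial genes, -0.09 for tendon markers, 0.43 for glycolysis enzymes and -0.09 for G2M genes. In E14.5G1KO that setting gives 0.46 for ATF4 targets, 0.11 for endoplasmic reticulum chaperones and -0.37 for G2M genes, and in E14.5dKO 0.90, -0.28 for chondrocyte markers, -0.15 for osteogenic markers and -0.34 for G2M genes. After thinning the G2M medians are -0.29 in E14.5G1KO and -0.24 in E14.5dKO, and with 2 or more Dcn+Lum+Ogn UMIs -0.15 and -0.04. Chondrocyte markers in E14.5G1KO are 0.05 with 8 or more Dcn+Lum+Ogn UMIs, 1.08 after thinning, 0.14 without members with many Col2a1 UMIs and 0.21 without members lacking a Dcn UMI.

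Single genes change sign in some settings. With age, Actc1 is 0.01 and Mylpf 0.21 after thinning, and Mylpf 0.01 without gated members. With Dcn+Lum+Ogn alone Chodl is -0.07 and Rarres2 -0.78. Col11a2 is -0.63 without many Col2a1 UMIs and -0.47 without members lacking a Dcn UMI, where Matn4 is -0.18 and Phlda2 -1.30. In E14.5G1KO, after thinning AA465934 is 0.48, Actc1 -0.14, Mylpf -0.97 and Tnnc1 -0.99, Apoe is -0.01 with 8 or more Dcn+Lum+Ogn UMIs and -0.40 without gated members, and Mylpf is -0.25 without gated members and -0.29 without members with many hemoglobin or contractile UMIs. In E14.5dKO Mylpf is 0.44 with 2 or more Dcn+Lum+Ogn UMIs and Slc2a3 -0.24 with Dcn+Lum+Ogn alone. The cause of these changes was not tested.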

Other observations

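Growth factor and chemokine genes of the members go both ways with age, with 25 of 40 above 0 and 15 below. Past 2-fold, 11 are higher and 2 lower, beside 4.29 and 3.71% of all genes. Their median is 0.36 beside -0.09, and -0.31 with Dcn+Lum+Ogn alone as the rule. Kitl, the ligand of the receptor Kit, had 7.92, 42.5, 26.9 and 36.9 CPM and is low only in E13.5WT. Rspo3, which amplifies Wnt signals, had 131, 229, 227 and 142, with ratios in E14.5dKO of -0.35 (-0.53 to -0.18) among members with a Dcn UMI and -0.68 (-1.04 to -0.31) among those without. Ntf3, a neurotrophin, had 36.1, 31.6, 16.6 and 13.6, and both Cre libraries are lower than both No cre libraries.

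Immediate-early genes, which tissue digestion can induce, are above 0 for 20 of 23 with age (median 0.33), 18 of 23 in E14.5G1KO and 19 of 24 in E14.5dKO (median 0.14 in each). Fos had 824, 1289, 1466 and 1468 CPM in members. The part of these genes in the other results was not tested.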
